A study of Oryza sativa Indica Group with 64 samples.

Results

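A group of 137 rice genes was lower in WNT than in Control leaves 3 h after dawn. By D, the difference of medians defined below, the difference was smaller in size at each of the other 7 time points. The genes were chosen from the measured values themselves. Levels were expressed as CPM, the count of a gene divided by the sum of all gene counts of its library, times 1000000. D was the median log2(CPM + 1) of the 4 WNT libraries minus that of the 4 Control libraries at a time point. A gene was taken when its mean over the 64 libraries lay between 1 and 500 CPM, the range of its Control medians over the day was under 2 on the log2 scale, and D did not have the same sign at all 8 time points. In addition, the absolute D had to be largest at 3 h, D had to be negative there, and all 4 WNT libraries had to lie below all 4 Control libraries at that hour. Of 57174 genes listed, 18300 met the limits on level, 14150 also met the limit on range, and 13004 also had D of both signs. Among these, 915 had their largest absolute D at 3 h with D negative there, and 137 of the 915 were without overlap. The choice allowed for up to 150 genes, so all 137 were kept. Because the 3 h values chose the genes, everything given below for 3 h is a description and not a test of WNT.

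The WNT group was IR64 rice grown in a field plot at IRRI in the Philippines in the dry season and heated at night with infrared heaters, which the labels call WNT and the paper calls HNT. The Control group was IR64 grown in the field at IRRI in the same season, for which the labels give no heating. Leaves, which the paper calls flag leaves, were taken at dawn, at 3, 7 and 10 h after dawn, at dusk, and at 14, 17 and 23 h after dawn. Each treatment was sampled in 4 replicates at each of these 8 hours, and poly(A) RNA was sequenced. Neither the labels nor the paper say whether a replicate was 1 plant or several, or how heated and unheated plots were arranged, so WNT cannot be told apart from a difference between plots, and p-values measure only the spread between these libraries.

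Warm nights raise the respiration of rice leaves during the dark hours and so draw on the carbon that photosynthesis stored by day. In leaves, the first hours of light are a time of large transcript change, because light signals, the circadian clock and the supply of new sugars all act on gene expression then. Many plant genes therefore have a preferred hour of high or low abundance. Leaves sampled in the morning hours after a heated night can therefore carry marks of both the night before and the new light. In whole leaves, fewer cells of a type and less RNA per cell cannot be told apart.

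The count files give genes by identifiers starting in MH, without names, and 0 of them were matched in the RefSeq gene table used for rice. The genes are therefore described by their levels and by their rank in D, without functions, and the labelled leaf tissue could not be checked against its markers. Only 2 identifiers are printed. The 64 libraries held 1714647 to 37248564 counts on genes (median 8627815). The smallest level that a library can show, taken as 3 counts, lay between 0.0805 and 1.75 CPM, which covers counting error only. All 137 genes passed the filter on low counts, and 17 of their 8768 values were 0, in 10 of the genes.

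At 3 h, the median level over the 137 genes was 3.20, 3.44, 3.31 and 2.77 on the log2(CPM + 1) scale in the 4 WNT libraries, against 4.11, 4.14, 4.12 and 4.21 in the 4 Control libraries. The WNT libraries were spread over a wider range than the Control libraries, and WNT replicate 4 was the lowest. Summed over the genes, the level was 3692 ± 473 CPM in WNT and 7172 ± 414 CPM in Control (SD, n = 4 each). For single genes, D at 3 h ranged from -2.78 to -0.19 with a median of -0.68, and it was below -1 in 32 genes and above -0.5 in 42. Most of the genes thus differed by less than a factor corresponding to 1 on the log2 scale, and 2 genes went below -2. Over the 14150 genes within the same limits on level and range, the median D at 3 h was 0.06.

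**Figure D1:**
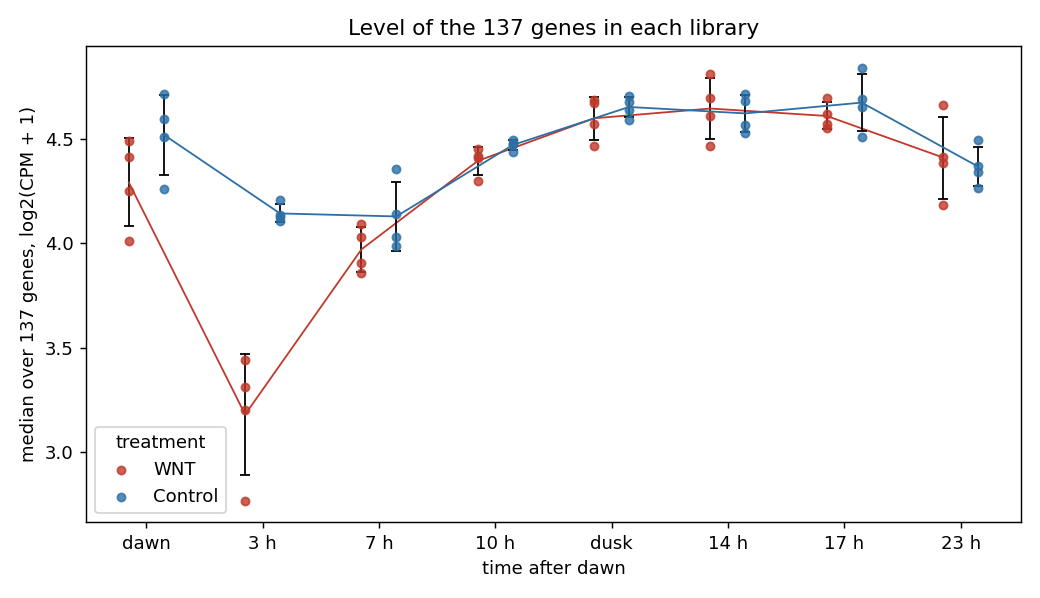
Median level of the 137 genes in each library, as log2(CPM + 1), over the 8 time points. Each point is 1 library, the line joins the means of 4 libraries, and the bars are SD; at 3 h the WNT libraries sit between 2.77 and 3.44 and the Control libraries between 4.11 and 4.21.

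In edgeR's quasi-likelihood fit, with libraries scaled by TMM, the median log2 fold change of the genes at 3 h was -0.96, over a range of -2.93 to -0.28. Over all 20525 genes tested the median was -0.05. Of the 137 genes, 87 (63.5%) had an adjusted p-value under 0.05 with a lower level in WNT, where 2.75% of all genes tested did so. Libraries of all 137 were without overlap at 3 h by the choice of the genes, against 2.7% of all genes tested. Nothing is read from either share, since both come from the contrast that chose the genes. The 50 genes that did not pass had a median log2 fold change of -0.75, and the 87 that passed one of -1.13. Of the 50 genes with the lowest D, 42 passed, and of the 50 with the highest D, 24 did. With CPM scaled by TMM, 100 of the 137 genes were still without overlap at 3 h.

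The largest difference among the genes with a mean of at least 10 CPM, and among all 137, was that of MH03t0148200. At 3 h it had 31.5, 38.8, 13.7 and 18.1 CPM in the 4 WNT libraries, against 224, 129.8, 268.3 and 98.3 CPM in the 4 Control libraries. All WNT values were below 40 CPM, and the Control values differed among themselves by more than the WNT values did. The means were 25.5 ± 11.6 CPM in WNT and 180.0 ± 79.4 CPM in Control (SD, n = 4 each), and the log2 fold change was -2.93 (standard error 0.50). At dawn, MH03t0148200 averaged 112 ± 28.4 CPM in WNT and 268.1 ± 119 CPM in Control, with 1 Control library at 99.1 CPM inside the WNT range. The log2 fold change there was -1.26 (standard error 0.46, edgeR adjusted p = 0.197). At 7 h it averaged 67.0 ± 13.3 CPM in WNT and 93.6 ± 51.8 CPM in Control, and the libraries overlapped. At 10 h the 4 WNT libraries, at 69.2 to 153.6 CPM, were again below the 4 Control libraries, at 181 to 283 CPM, and the log2 fold change was -0.96 (standard error 0.46, edgeR adjusted p = 0.534). From dusk to 23 h the libraries of the treatments overlapped at each time point. The lowest mean of MH03t0148200 lay at 3 h in WNT leaves and at 7 h in Control leaves, and the highest at dusk in both, at 214 ± 89.6 CPM in WNT and 288.8 ± 86.8 CPM in Control (SD, n = 4 each).

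MH07t0285200 was the most abundant of the genes, with a mean of 499.4 CPM, just under the upper limit of the choice. At 3 h it had 305, 231, 214 and 217 CPM in the 4 WNT libraries, against 828.5, 819, 625 and 364 CPM in the 4 Control libraries. Control replicate 4 came nearest to the WNT values. The means were 242 ± 43.0 CPM in WNT and 659 ± 218 CPM in Control (SD, n = 4 each), and the log2 fold change was -1.54 (standard error 0.37). At 10 h the 4 WNT libraries, at 443.5 to 573 CPM, were again below the 4 Control libraries, at 607 to 1033 CPM. At that hour the log2 fold change was -0.62 (standard error 0.37, edgeR adjusted p = 0.668). At 17 h the means stood in the other order, without passing the test. They were 449.04 ± 67.2 CPM in WNT and 382 ± 149 CPM in Control (SD, n = 4 each), and the log2 fold change was 0.23 (standard error 0.37, edgeR adjusted p = 0.92). Over dawn, 3 h and 7 h the means of MH07t0285200 were 399.6, 242 and 416 CPM in WNT leaves and 606, 659 and 638 CPM in Control leaves, so the low point of the morning appeared in the WNT means.

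**Figure D2:**
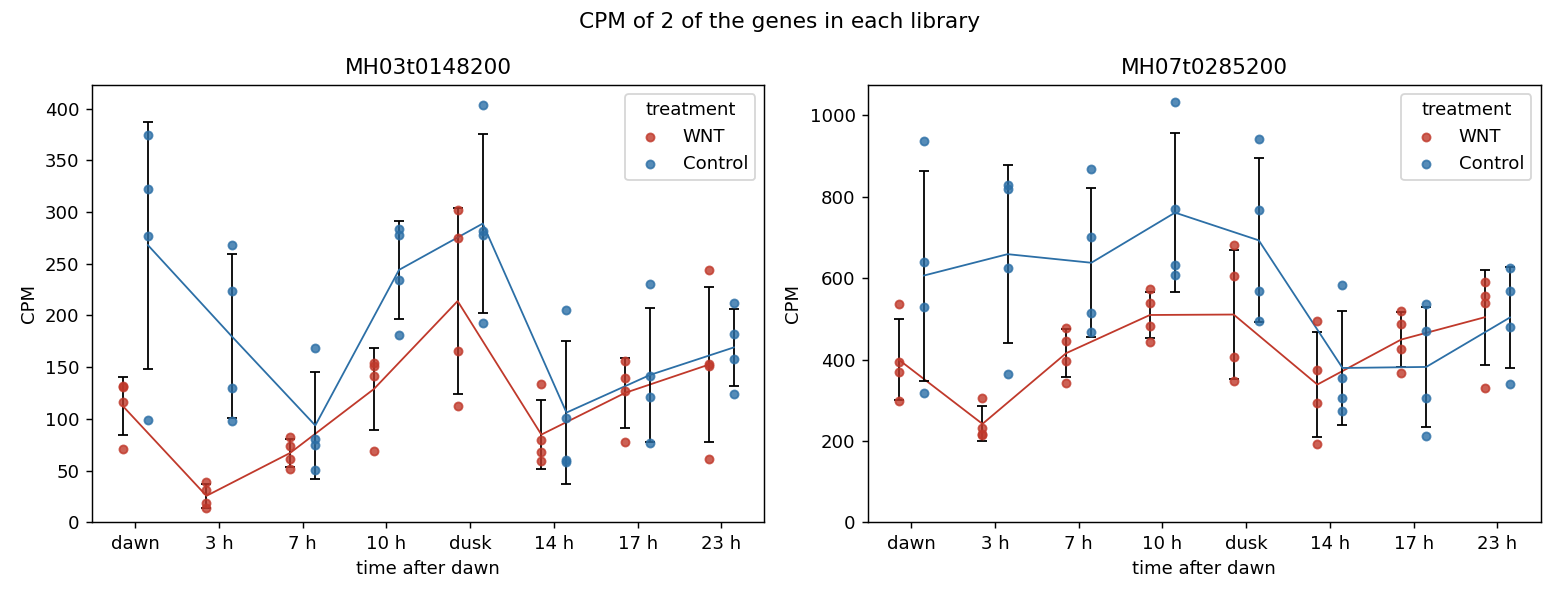
CPM of MH03t0148200 and MH07t0285200 in each library over the 8 time points. Each point is 1 library, the line joins the means of 4 libraries, and the bars are SD; at 3 h all WNT libraries lie below all Control libraries in both genes.

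Large differences at 3 h were found in genes of low and of high abundance. The gene with the second lowest D, at a mean of 7.28 CPM, had 3.97, 1.70, 1.30 and 0.602 CPM in WNT, against 14.0, 17.7, 11.6 and 4.75 CPM in Control. The gene with the fourth lowest D, at a mean of 16.6 CPM, had 2.65, 3.40, 3.17 and 1.20 CPM in WNT, against 16.9, 14.0, 15.1 and 11.2 CPM in Control. The groups did not overlap in either gene, but in the one of lower abundance the lowest Control library lay close to the highest WNT library. The seventh gene by D, at a mean of 266 CPM, had 72.0, 91.5, 71.7 and 88.4 CPM in WNT, against 379, 289.1, 243 and 169 CPM in Control. By abundance, the median D at 3 h was -0.67 in the 43 genes under 10 CPM, -0.63 in the 55 genes from 10 to 50 CPM, and -0.73 in the 39 genes above 50 CPM. The 1 CPM added in D shrinks the differences of genes of low abundance. The median log2 fold changes of the same 3 classes in edgeR were -1.11, -0.87 and -0.90. Some genes under 10 CPM lay at or under the level of 3 counts in WNT at 3 h, so their fold changes are uncertain. The 23rd gene by D had 0.265, 0.340, 0.144 and 0.301 CPM in WNT there. The WNT libraries of 3 h held 2941158 to 9972632 counts on genes, and the Control libraries 5777296 to 36597029.

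Single libraries at 3 h shaped these values in different ways. WNT replicate 4 was the lowest of the WNT libraries in 85 of the 137 genes. Its median over the 14150 genes within the limits was also the lowest, at 3.68, against 3.86 to 4.03 in the other 3 WNT libraries. Without this library, 31 of the genes passed the threshold at 3 h in place of 87, and the median log2 fold change was -0.95. Control replicate 4 differed from its group, and the cause was not tested. In this library 22.02% of reads were not aligned, against 11.7% to 12.6% in the other 3 Control libraries. Its median over the 14150 genes was 4.26, against 3.71 to 3.74 in the other 3. Its TMM factor was 1.06, against 0.72 to 0.76. The 10 genes with the highest counts took 6.37% of its total, against 11.1% to 11.6% in the other 3. Among the 30 genes with the lowest D it was the lowest Control library in 20, and among the rest it was the highest in 54. Without it, 91 genes passed and the median log2 fold change was -0.99. The number of calls thus depended on WNT replicate 4. Calls over all genes tested also moved, from 564 lower at 3 h to between 102 and 680 with a replicate or library left out. The dependence is therefore not read as particular to the 137 genes. The direction without any 1 library was fixed by the choice of groups without overlap.

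The low point of the day lay at 3 h for most of the genes in WNT but not in Control. In WNT, 83.2% of the genes had their lowest median of the day at 3 h, against 29.4% of the genes within the same limits. In Control, 28 genes (20.4%) were lowest at 3 h and 46 (33.6%) at 7 h, against 30.5% and 10.6% of the genes within the limits. The median of the 137 genes stood 0.64 below the mean of dawn and 7 h in WNT and 0.11 below it in Control on the log2 scale. Over the genes within the limits, the median stood 0.10 below that mean in WNT and 0.17 below it in Control. Of the 137 genes, 136 were below that mean in WNT and 93 in Control, against 62.8% and 73.6% of the genes within the limits. The median difference of 7 h minus 3 h was 0.58 in WNT and -0.03 in Control, against 0.18 and 0.25 over the genes within the limits. Set against those genes, the WNT values at 3 h stood low and the Control values at 3 h stood somewhat high, in the same libraries that chose the genes.

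Calls at the other 7 time points were few in edgeR, for the 137 genes as for all genes tested. Few calls with 4 libraries per group do not show equal levels. In edgeR's quasi-likelihood test, 0 of the 137 genes had an adjusted p-value under 0.05 at any of them, where 0.609% of all genes tested did. With DESeq2, 6 of the genes (4.38%) passed at any of these hours, against 4.02% of all genes tested. With limma-voom and sample quality weights, 19 (13.9%) did, against 16%. In edgeR, 5 of the genes (3.65%) passed without Control replicate 2, against 1.51% of all genes tested, and 2 (1.46%) without Control replicate 4, against 0.711%. At an unadjusted p-value under 0.05 there were 22 genes at dawn, 17 at 7 h, 10 at 10 h, 3 at dusk, 3 at 14 h, 7 at 17 h and 8 at 23 h. At dawn this was 16.1% of the genes, against 14.4% of all genes tested, and at 7 h it was 12.4%, against 9.3%. At the later hours the share was below that of all genes tested. The choice of the genes held D at these hours below that at 3 h in size and asked for both signs, so smaller differences there were partly set by the choice.

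By log2 fold change, the differences at these other hours were more often lower in WNT than among all genes tested from dawn to dusk and at 23 h. The gap was widest at dawn. By this measure the difference was not largest at 3 h in every gene. The choice fixed the sign of D at none of the other 7 time points taken alone, although D had to be positive at 1 of them at least. At dawn, 111 of the 137 genes (81.0%) had a log2 fold change below 0, against 49.6% of all genes tested, with a median of -0.23 against 0.00. At 7 h there were 97 genes (70.8%), against 50.9% of all genes tested, with a median of -0.19. At 10 h the shares were 67.2% and 48.8%, and at dusk 69.3% and 50.2%. At 14 h and 17 h the genes were divided like all genes tested, with 52.6% below 0 at both hours, against 52.4% and 49.0%. At 23 h the share was 66.4%, against 44.8%. D uses no TMM scaling and also differs from the log2 fold change in its medians and its added 1 CPM. The median D was 0.08 at 14 h, against a log2 fold change of -0.00, and 0.01 at 23 h, against -0.10. The part of scaling in this was not separated, and no sign of the median is given for these hours. At 23 h the median D of the 14150 genes within the limits was itself 0.12. By D, 48.2% of the 137 genes were below 0 at that hour, against 32.8% of the genes within the limits. With 1 replicate of either treatment left out, the fewest genes below 0 at dawn were 98 of 137, without Control replicate 3, against 49.0% of all genes tested. At 7 h the fewest were 79 of 137, without Control replicate 2, against 49.7% of all genes tested, so the share at 7 h came near that of all genes without this replicate.

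**Figure D3:**
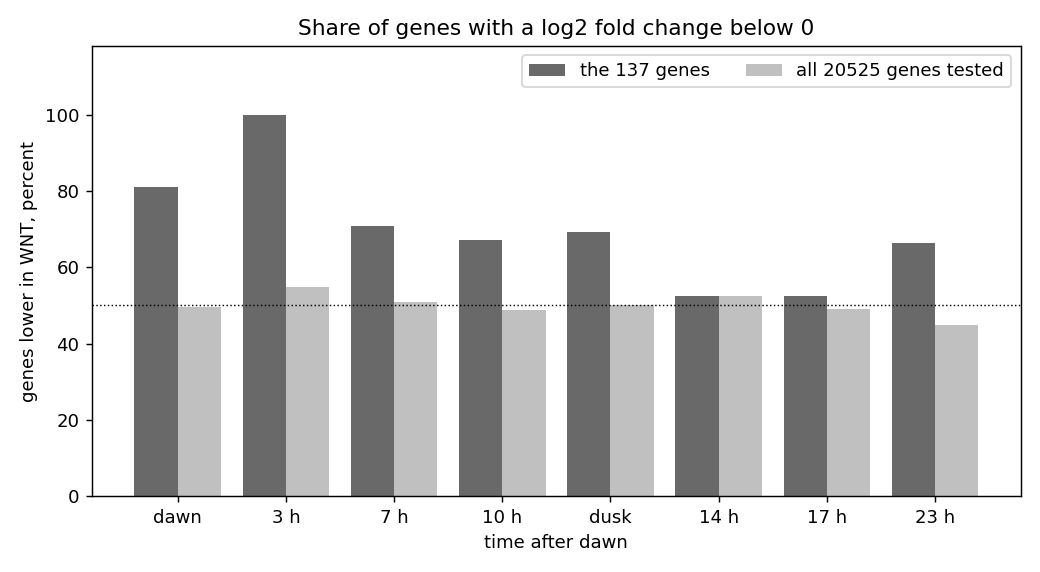
Percentage of genes with a log2 fold change below 0, that is lower in WNT than in Control, at each time point (edgeR, TMM scaling). Dark bars are the 137 genes and light bars all 20525 genes tested; the dark bars reach 81.0% at dawn and 52.6% at 14 h, and 100% at 3 h by the choice of the genes.

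Counted by libraries without overlap, a few of the genes were separated at other hours too. At dawn, 7 genes (5.11%) had all 4 WNT libraries below all 4 Control libraries and 1 had them above, against 2.14% and 2.28% of all genes tested. At 7 h these were 6 genes below and 1 above, against 1.85% and 2.86%. At 10 h they were 12 genes below (8.76%) and 1 above, against 3.43% and 6.97%. At dusk 3 genes were below and 5 above, against 1.14% and 1.98%. At 14 h there were 0 below and 0 above, against 1.05% and 1.96%, and at 17 h 2 below and 2 above, against 1.64% and 2.09%. At 23 h 6 genes were below and 1 above, against 2.08% and 4.83%. These separations were counted on plain CPM and were not tested, and at 14 h and 23 h the sign of the median difference depended on the measure.

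By the sign of D, 71 of the genes were lower in WNT at dawn, 3 h and 7 h together, 31 at dawn and 3 h but not 7 h, 24 at 3 h and 7 h but not dawn, and 11 at 3 h alone of these hours. D was below 0 in 74.5% of the genes at dawn and 69.3% at 7 h, against 51.2% and 45.2% of the genes within the limits. Neither these classes nor the hour of the second largest D was counted over the genes within the limits. The second largest absolute D of a gene lay at dawn in 50 genes and at 7 h in 23, and in 7 to 17 genes at each of the other hours. That second value was between 13.9% and 99.96% of the value at 3 h, with a median of 63.3%. It was under 50% in 38 genes and at 90% or more in 16. The gene most confined to 3 h was the fifth by D, which had 1.59, 3.06, 0.864 and 0.501 CPM in WNT, against 8.47, 7.05, 8.48 and 3.07 CPM in Control at 3 h. At dawn, where its second largest D lay, it had 8.25, 8.89, 7.48 and 5.32 CPM in WNT, against 7.35, 5.39, 8.03 and 5.30 CPM in Control, with overlapping groups. The gene least confined to 3 h was the 25th by D, with a D of -1.10 at 3 h and -1.09 at 17 h. At 17 h it had 29.5, 19.7, 10.4 and 19.3 CPM in WNT, against 31.4, 43.7, 45.9 and 41.9 CPM in Control.

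**Figure D4:**
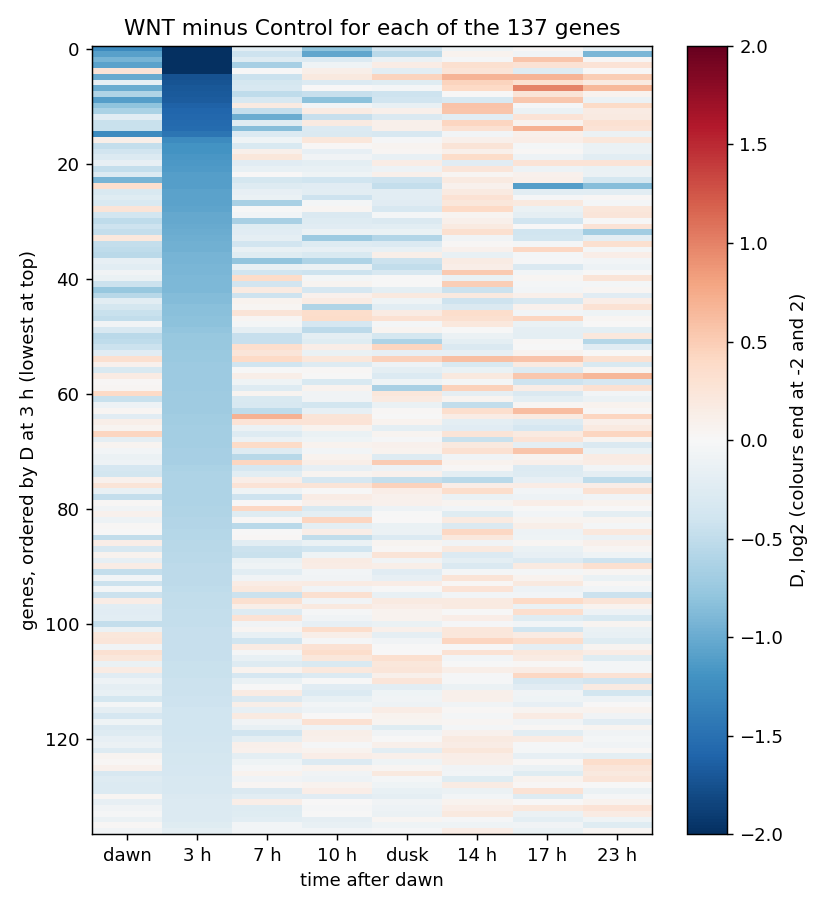
D, the median log2(CPM + 1) of WNT minus that of Control, for each of the 137 genes (rows, lowest D at 3 h at the top) at each time point (columns). Blue is lower in WNT and red is higher; the column at 3 h is blue throughout by the choice of the genes, and dawn holds the second largest absolute D in 50 genes.

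The libraries of the other 7 time points showed when the genes were low in the day. In WNT leaves, 54 of the 137 genes (39.4%) fell at 7 h relative to dawn, against 21.2% of all genes tested, and 8 (5.84%) rose, against 24.3% (edgeR's quasi-likelihood test, adjusted p-value under 0.05). In Control leaves, 59 genes (43.1%) fell, against 21.7%, and 8 (5.84%) rose, against 22.8%. The median log2 change at 7 h relative to dawn was -0.43 in WNT over the genes and 0.03 over all genes tested, and in Control -0.54 over the genes and 0.07 over all genes tested. The same 45 genes fell in both treatments, 9 in WNT alone and 14 in Control alone, and whether the treatments differ in this step was not tested. In the 45 genes the median change was -1.23 in WNT and -1.14 in Control. The 59 genes that fell in Control had a median D of -0.87 at 3 h, and the other 78 one of -0.62. These shares come from libraries outside the 3 h contrast. The choice did limit the range of the Control medians, and it held D at dawn and at 7 h below that at 3 h in size. All genes tested were not held to these limits. The contrast of 7 h with dawn was chosen after the results at 3 h were seen.

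**Figure D5:**
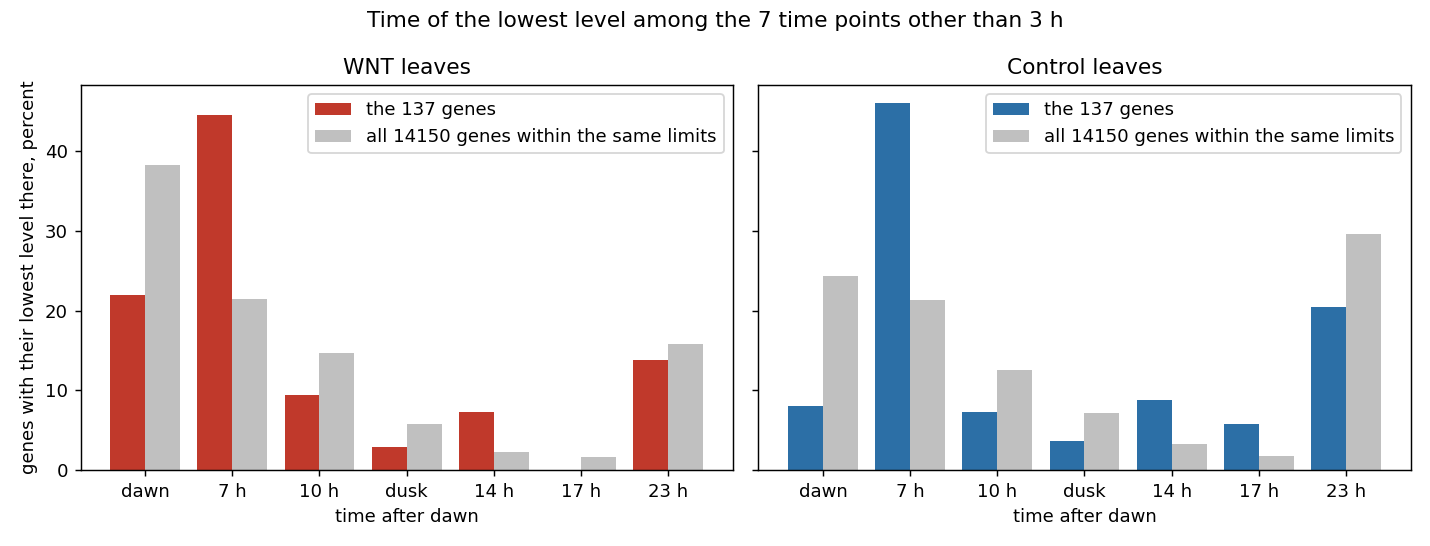
Time of the lowest median level among the 7 time points other than 3 h, as a percentage of genes, in WNT leaves (left) and Control leaves (right). Coloured bars are the 137 genes and grey bars all 14150 genes within the same limits on level and range; 7 h holds 44.5% of the 137 genes in WNT and 46.0% in Control, against 21.5% and 21.3%.

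Among the 7 time points without 3 h, the lowest level lay at 7 h in 61 genes in WNT and in 63 in Control. Dawn was lowest in 30 genes (21.9%) in WNT, against 38.3% of the genes within the limits, and in 11 (8.03%) in Control, against 24.4%. The highest level lay most often at 17 h, in 32 genes in WNT and in 37 in Control. The level at 14 h, the most frequent maximum of the genes within the limits with 34.3% in WNT and 34.7% in Control, was the maximum of 19.7% and 12.4% of the 137 genes. A change among the 7 time points as a whole passed the test in 94 genes (68.6%) in WNT and 101 (73.7%) in Control, against 64.7% and 66.6% of all genes tested. The share with a changing level was thus within 10 percentage points of that of all genes tested in both treatments.

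Little covariation between single libraries was seen among the genes. Over the 56 libraries of the other 7 time points, the deviations of a library from its group mean had a median correlation of 0.072 over the 9316 pairs of the 137 genes, and of 0.103 over all pairs of the 14150 genes within the limits. Libraries, depth and base composition are shared by all these points, and the values are a description. The median SD between replicates at those time points was 0.32 on the log2 scale for the genes and 0.31 for the genes within the limits. At 3 h it was 0.27 in WNT and 0.24 in Control for the genes, against 0.36 in each for the genes within the limits, and the demand for groups without overlap was made on these same libraries. In the order of the count files, 0 pairs of the genes stood next to each other and 1 pair stood within 5 places. Identifiers that begin with MH03 were the most frequent start, with 24 of the genes (17.5%), against 13.3% of the genes within the limits, and those that begin with MH05 made up 5 (3.65%), against 8.33%.

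The limits of the choice were close to many genes. The demand for groups without overlap was the one most often missed alone, by 778 genes with a median D of -0.47 at 3 h. The narrowest gap inside was 0.0039 on the log2 scale, and the nearest gene outside overlapped by 0.00074. The limit on the Control range was missed alone by 150 genes, with a median D of -1.08 and a lowest D of -3.50, so stronger differences at 3 h exist among genes with a larger daily range. The nearest ranges were 1.99 inside and 2.01 outside. A larger difference at another hour alone kept out 84 genes, the limits on level 49, and D of 1 sign at all hours 18. The nearest mean levels were 1.01 CPM inside and 0.968 CPM outside at the lower limit, and 499 CPM inside and 508 CPM outside at the upper one.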

How the data were processed

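Counts were made by the authors from reads of poly(A) RNA and deposited as raw whole-number counts per gene, without normalization. The submitters' processing notes name HISAT2 and HTSeq 0.6.0. Genome build, annotation and strand setting are not given in the sources used here, so overlapping, antisense and near-identical genes are uncertain. The 5 closing lines of each file were left out of library sizes. Libraries were grouped by the treatment, time and replicate in their titles. Tests used edgeR 4.0.16 in R 4.3.3 (filterByExpr at its default minimum counts of 10 per library and 15 in total, TMM, glmQLFit with robust estimation, glmQLFTest) in 1 model of 16 groups, with Benjamini-Hochberg adjustment over all 20525 genes tested within each comparison and a threshold of 0.05. Alternatives used DESeq2 1.42.0 and limma 3.58.1. CPM for the choice of genes used the plain library sums. The rule for naming genes was the lowest D at 3 h among genes with a mean of at least 10 CPM, and the highest mean CPM; any gene that rose at another time point would also have been named, and 0 did. The genes, lists and tests were chosen with earlier results of these data known. In simulated data 124 of 200 genes lowered by 1 at 3 h on the log2 scale were recovered (62%) and 172 of 200 lowered by 2 (86%), with 14 unchanged genes called among 20207 tested. The lowered genes were drawn only from those with higher mean fitted counts, so these rates do not cover genes of low abundance. Plots used matplotlib 3.10.9.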

Additional observations from a re-analysis of the deposited data

Results flagged for a closer look

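In each of the 16 groups, the median level of the 137 genes and the CPM of both named genes were examined for 1 library far from the other 3, which made 48 checks. The gap passed Dixon's 95% limit in 1 of them, where chance gives 2.4. WNT replicate 3 at 10 h had 69.2 CPM of MH03t0148200, against 141.4 to 153.6 CPM in the other 3 WNT libraries.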

How the results depend on the processing

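With the list of 137 genes held fixed, their median log2 fold change at 3 h lay between -1.01 and -0.85 under 24 alternatives, and its sign was fixed by the choice. The number that passed at 3 h, 87, ranged from 26 to 91 when 1 replicate or 1 library of 3 h was left out, the lowest without WNT replicate 4 at all hours, and 1 gene passed when each time point was fitted alone, a fit with fewer libraries. In that fit neither MH03t0148200 (adjusted p = 0.0741) nor MH07t0285200 (adjusted p = 0.171) passed, and both passed under the other 23 alternatives. The number that passed at any other time point, 0, became 3 with at least 10 counts in every library (3.26% of the 92 genes kept, against 2.38% of all genes tested), 2 with each time point fitted alone (1.47%, against 1.62%), 19 with limma-voom (13.9%, against 16%), 6 with DESeq2 (4.38%, against 4.02%) and 0 to 5 with a replicate left out (0% to 3.65%, against 0.0241% to 1.51%). The cause was not tested. With a replicate block it was 1 (0.73%, against 0.521%), and 86 genes passed at 3 h. Of the same-numbered pairs of libraries, 12 of 32 had deviations correlated above 0.1, so the numbers were not taken as pairs, and 6 of 32 WNT libraries were nearest to their own number. The genes that fell from dawn to 7 h numbered 37 to 61 in WNT and 40 to 70 in Control under 13 alternatives, against 10.8% to 30.1% and 10.9% to 31.1% of all genes tested. These alternatives were chosen after seeing the data, as were those for the direction at dawn and 7 h and for the shares of all genes called at other hours. Repeated with TMM-scaled CPM, the choice took 46.0% of the 137 genes again, and without 1 library of 3 h it took 54.0% to 83.9%, the lowest share without WNT replicate 3. Except without WNT replicate 4 of 3 h, more than 150 genes then met the rule and only 150 were taken, which lowered these shares. With TMM, 270 genes met the rule, among them 81 of the 137. Without WNT replicate 3 of 3 h, 354 genes met it, among them 128 of the 137. Whichever 1 library of 3 h was left out, at least 83.9% of the 137 genes still met the rule. Over all genes tested, 564 were lower at 3 h, against 3 with each time point fitted alone and 102 to 680 with a replicate or library left out. Depth limits the lowest genes, where 3 counts reach 1.75 CPM in the shallowest library.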

Other observations

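The same choice, made with another hour in place of 3 h, gave between 28 genes lower in WNT at dusk and 140 at dawn. The other hours lay between these, with 129 genes for 10 h and 84 for 17 h. The mirrored choice of genes higher in WNT gave 271 genes for 3 h, and 306 each for 10 h and for 23 h. The number of genes lower at 3 h was thus not above that of dawn. These counts are descriptions, since each hour has its own spread between replicates.

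The 130th gene by D at 3 h, at a mean of 1.58 CPM, had the lowest and the highest log2 fold change of any of the 137 genes at another hour, each from 1 library. At 14 h it had 0.709, 0.929, 0.433 and 0.337 CPM in WNT, against 0.759, 48.1, 0.653 and 0 CPM in Control, and the log2 fold change was -4.32 (standard error 1.13, edgeR adjusted p = 0.198). In the Control library with 48.1 CPM, 21.7% of reads were aligned to several places, against 3.60% to 5.92% in the other 3 Control libraries, and the part of this in the value was not tested. At 23 h it had 0.408, 0.306, 13.7 and 0.580 CPM in WNT, against 0.195, 0.457, 1.30 and 0.798 CPM in Control, and the log2 fold change was 2.26 (standard error 1.07, edgeR adjusted p = 0.313).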
